A study of Mus musculus with 2 samples.

Results

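The enzymes described here break down phenylalanine, tyrosine and tryptophan, the aromatic amino acids, in the liver. They are 9 genes of the 43346 listed in the tables: Pcbd1, Tat, Hpd, Hgd, Gstz1 and Fah for phenylalanine and tyrosine, and Tdo2, Kmo and Haao for tryptophan. They were chosen by name and by no cutoff on a measured value, but with earlier results of these data known. All 9 symbols matched a row. The samples are livers of newborn mice of the strain B6NCrl on postnatal day 0, untreated as far as the labels say, with 1 RNA-seq library from the liver of pup 1 (replicate 1) and 1 from that of pup 3 (replicate 2). Each library was made from 13 pg of tissue RNA longer than 200 nt, which the labels equate with 1 cell, so the values average over all cells of the organ. There is 1 group and no contrast, the sex was not collected, and both livers carry the same donor entry, so animal and technical spread cannot be told apart.

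Phenylalanine is turned into tyrosine with the help of tetrahydrobiopterin, a pterin cofactor that Pcbd1 and Qdpr return to its active form. Tyrosine is then taken apart in turn by Tat, Hpd, Hgd, Gstz1 and Fah, which end with fumarate and acetoacetate. Tryptophan enters the kynurenine pathway through Tdo2 and passes Afmid, Kmo, Kynu and Haao on the way to quinolinate, from which NAD can be made. These pathways are known as functions of hepatocytes, and several of the enzymes are also made in kidney tubules. In people, loss of FAH causes hereditary tyrosinaemia and loss of HGD causes alkaptonuria.

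The libraries held 54817565 (pup 1) and 34792898 (pup 3) expected counts from mouse features, which are estimated reads per gene. Levels are given in TPM, transcript abundance corrected for length and depth, after removal of spike-in RNAs, so that genes of different length can be set side by side. All 10 hepatocyte markers checked, among them Alb and Apoa1, reached 1 TPM in both libraries and summed to 18.0% of TPM in pup 1 and 14.9% in pup 3. The 8 erythroid markers, mainly globins, summed to 13.3% in pup 1 and 16.4% in pup 3, and the 7 neutrophil markers to 0.632% and 0.909%. The neutrophil markers did not all go the same way. S100a8 had 2061 TPM in pup 1, against 4236 TPM in pup 3, whereas Ngp had 1560 and 996 TPM. The 10 Kupffer cell and macrophage markers summed to 0.0860% in pup 1 and 0.140% in pup 3. Of these 10, 7 reached 1 TPM in both libraries and 3 in pup 3 only, among them C1qc (0 and 196 TPM). C1qb was higher in pup 1 (259 and 225 TPM). The sums therefore do not measure a difference in cell types. All 8 kidney tubule markers, among them Umod and Slc34a1, had no counts in either library, as had 58.2% of all 21474 protein-coding genes. In tissue RNA, fewer cells of a type and less RNA per cell cannot be told apart.

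Pcbd1 encodes pterin-4a-carbinolamine dehydratase, which acts in the recycling of tetrahydrobiopterin. The gene lies on chromosome 10 (61089331 to 61094324 in GRCm38, plus strand), and its 809 nt transcript of 4 exons is the one listed. It had 2610 expected counts and 88.1 TPM in pup 1, and 5557 expected counts and 273 TPM in pup 3. Its mean of 181 ± 131 TPM (SD, n = 2, as for all means below) therefore carries a spread close to the mean itself.

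Tat encodes tyrosine aminotransferase, which starts tyrosine breakdown and is a classic target of glucocorticoids and glucagon, known from rat liver to be induced at birth. The gene lies on chromosome 8 (109990437 to 109999803, plus strand). It had 39224 expected counts and 413 TPM in pup 1, and 23546 expected counts and 361 TPM in pup 3. With a mean of 387 ± 36.5 TPM it was the steadiest of the 9 genes on the TPM scale, its SD being 9.44% of the mean. With TMM or DESeq2 scaling of the libraries, described at the end, Kmo and Hpd differed less between the pups than Tat. Its promoter window is shown as that of the enzyme at the start of the tyrosine route. The window is RefSeq's, on build GRCm38.p6, at chr8:109990186-109990485 on the plus strand, written 5′ to 3′, and runs from 250 bases before to 50 bases after the start site. The capitals mark CCAAT boxes, searched as CCAAT on both strands.
Tat: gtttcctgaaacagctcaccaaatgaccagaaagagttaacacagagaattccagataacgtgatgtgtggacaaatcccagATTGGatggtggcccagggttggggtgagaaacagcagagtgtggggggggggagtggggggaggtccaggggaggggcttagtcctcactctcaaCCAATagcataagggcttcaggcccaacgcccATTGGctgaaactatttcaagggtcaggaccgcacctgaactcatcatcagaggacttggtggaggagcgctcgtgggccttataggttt

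The Tat window holds 3 matches, which begin 168, 72 and 40 bases before the start site, the one at 72 on the gene's own strand and the others on the opposite strand. CCAAT was found in 37.4% of all 32851 RefSeq windows of the same length and in the windows of 4 of the 9 genes (Tdo2, Tat, Gstz1 and Hgd). TATAAA was found in 13.6% of all windows and in those of 3 of the 9 genes (Tdo2, Pcbd1 and Hgd). These matches begin 229 bases before the start site in Tdo2, 250 in Pcbd1 and 139 in Hgd, those of Pcbd1 and Hgd on the opposite strand. The glucocorticoid response element (GNACA, any 3 bases, then TGTNC), TTGCGCAA for CEBP factors, CAAAGTCCA for HNF4 and TGTTTAC for FOXA factors were in none of the 10 windows of the 9 genes, which says only that these letters are not there. Of 7 motifs searched, 1 is not reported here. A match is a description of the letters, and the motifs were picked once the sequences had been seen. The shares of these 4 motifs in all windows were 0.475%, 0.183%, 0.475% and 3.65%, in that order.

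Hpd, whose dioxygenase makes homogentisate, was the most abundant of the 9 in each library. The gene is on chromosome 5 (123171807 to 123182727, minus strand). It had 38197 expected counts and 764 TPM in pup 1, and 39771 expected counts and 1121 TPM in pup 3, a mean of 942 ± 253 TPM. That placed it at rank 145 of all listed genes in pup 1 and rank 95 in pup 3. The ratio of Hpd to Tat was 1.85 in pup 1 and 3.10 in pup 3, so the enzyme after the aminotransferase stood above it in both animals.

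The next enzyme, encoded by Hgd, opens the ring of homogentisate. Hgd is on chromosome 16 (37580153 to 37632020, plus strand). It had 11196 expected counts and 187 TPM in pup 1, and 5307 expected counts and 124 TPM in pup 3. At 156 ± 44.6 TPM it was the lowest of the 6 phenylalanine and tyrosine genes by mean. Within each library Hpd stood above it, by a ratio of 4.08 in pup 1 and 9.03 in pup 3.

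Gstz1 encodes maleylacetoacetate isomerase, a member of the glutathione transferase family, and lies on chromosome 12 (87147165 to 87164723, plus strand). It had 28447 expected counts and 435 TPM in pup 1, and 11073 expected counts and 247 TPM in pup 3, a mean of 341 ± 133 TPM. Exons of Pomt2 on the opposite strand overlap it, and since Pomt2 had 1 expected count in pup 1 and none in pup 3, few reads were assigned to that neighbour. The sources used here do not say whether reads were counted by strand. The span of Hpd overlaps Psmd9, and that of Kmo overlaps Fh1, both on the opposite strand, but these overlaps are not of exons. Whether any reads of a pair were given to the wrong gene was not tested.

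Fah, the last enzyme of the route, splits fumarylacetoacetate and lies on chromosome 7 (84585159 to 84606722, minus strand). It had 12987 expected counts and 227 TPM in pup 1, and 20460 expected counts and 521 TPM in pup 3, a mean of 374 ± 208 TPM. Fah and Gstz1, which act one after the other, changed places between the animals. The ratio of Fah to Gstz1 was 0.522 in pup 1 and 2.11 in pup 3.

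**Figure D1:**
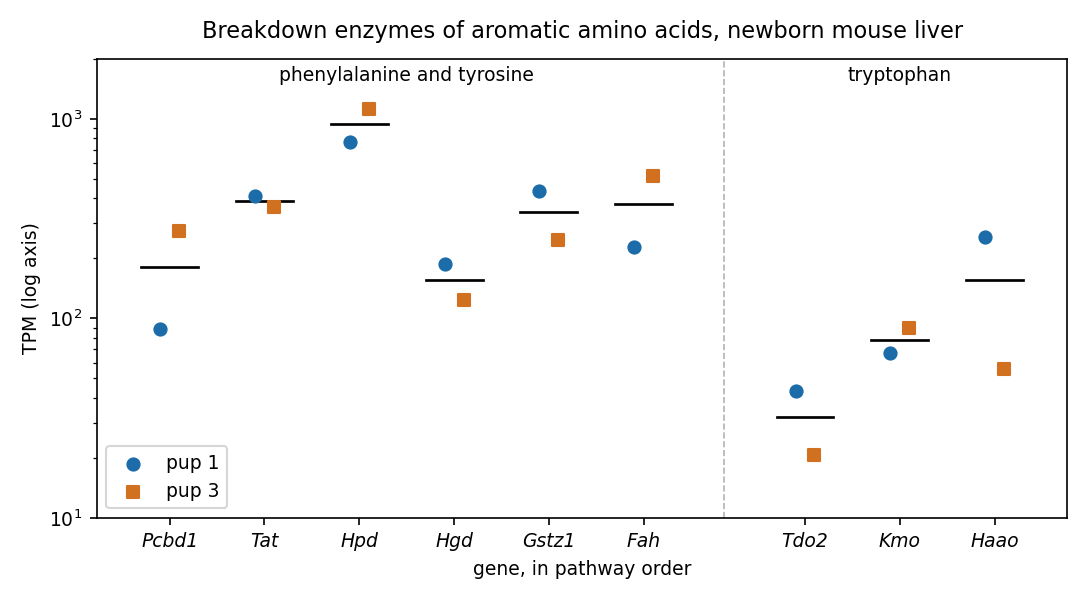
Level of each enzyme gene in TPM on a log axis, in pathway order, with a circle for the library of pup 1, a square for that of pup 3 and a bar at their mean. Hpd is the highest and Tdo2 the lowest gene in both libraries, and Tdo2 and Kmo lie below the 6 phenylalanine and tyrosine genes in each.

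Of the tryptophan genes, Tdo2 and Kmo stood below all 6 phenylalanine and tyrosine genes in each library. Tdo2 encodes tryptophan dioxygenase, which opens the kynurenine pathway in liver and, in the rat, is known to reach its full level only after birth. It is on chromosome 3 (81957090 to 81976202, minus strand). It had 2699 expected counts and 43.3 TPM in pup 1, and 1464 expected counts and 20.7 TPM in pup 3. At 32.0 ± 16.0 TPM it was the least abundant of the 9 genes in both libraries. Tat stood above it by a ratio of 9.52 in pup 1 and 17.5 in pup 3.

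Kmo, whose monooxygenase turns kynurenine into 3-hydroxykynurenine, is on chromosome 1 (175620381 to 175662116, plus strand) and was closer between the animals. It had 7259 expected counts and 66.8 TPM in pup 1, and 7000 expected counts and 89.6 TPM in pup 3, a mean of 78.2 ± 16.1 TPM.

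Haao, which makes the precursor of quinolinate, is on chromosome 17 (83831156 to 83847963, minus strand) and varied most of the 9. It had 11984 expected counts and 256 TPM in pup 1, and 1790 expected counts and 55.7 TPM in pup 3. Its mean of 156 ± 141 TPM has an SD that is 90.9% of the mean. In pup 1 Haao stood above Kmo by a ratio of 3.83, whereas in pup 3 the ratio was 0.621.

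Ordered by mean level, the 9 genes ran Hpd, Tat, Fah, Gstz1, Pcbd1, Hgd, Haao, Kmo and Tdo2. Among neighbours in that order, the values of the libraries did not overlap between Hpd and Tat or between Kmo and Tdo2. The other 6 neighbouring pairs overlapped, so their order is not fixed by these data. Hpd, Tat, Hgd and Tdo2 held the same place in both libraries, at 1, 3, 6 and 9.

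Together the 9 genes held 0.248% of TPM in pup 1 and 0.281% in pup 3, a mean of 0.265 ± 0.0236%. Hpd alone made up 30.8% of their sum in pup 1 and 39.8% in pup 3. As a percent of the summed hepatocyte markers, the 9 genes came to 1.38% in pup 1 and 1.89% in pup 3. The marker sum was lower in pup 3, mainly through Trf (64244 TPM in pup 1, against 42243 TPM in pup 3) and Ahsg, while 5 of the 10 markers were higher in pup 1 and 5 in pup 3. Its part in these values was not tested. The 6 urea cycle genes, another nitrogen-handling route of the liver, held 0.408% and 0.380%, and the 10 methionine cycle genes 0.802% and 0.673%. The 6 phenylalanine and tyrosine genes summed to 2114 TPM in pup 1, against 2648 TPM in pup 3. The 3 tryptophan genes summed to 366 and 166 TPM.

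The sum of the tyrosine genes was thus 5.78 times that of the tryptophan genes in pup 1 and 15.96 times in pup 3, a mean of 10.9 ± 7.20. Most of that gap between the animals lay in Haao. Tdo2 and Kmo together had 110.1 TPM in pup 1, against 110.2 TPM in pup 3, and the ratio without Haao was 19.2 in pup 1 and 24.0 in pup 3. Haao was set apart after its values had been seen.

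All 9 genes reached 1 TPM in both libraries. Over all genes that reached 1 TPM in either library, 46.3% did so in both, but most of those are less abundant. At a mean of 30 to 100 TPM, where Tdo2 and Kmo lie, the share was 75.7%. It was 97.9% at 100 to 300 TPM, where Pcbd1, Hgd and Haao lie, and 100% at 300 to 1000 TPM, where Tat, Hpd, Gstz1 and Fah lie. The count of 9 of 9 is therefore near what genes of these levels showed. All 9 had expected counts in both libraries with nothing but zeros in the 2 decimals deposited, as had 74.4% of genes with counts in pup 1 and 71.4% in pup 3, so the estimation divided no reads of theirs with another gene.

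How far each enzyme differed between the animals was described by the log2 ratio of pup 1 over pup 3 on TPM + 1, which understates differences of low genes. Haao (2.18) and Tdo2 (1.03) were at least 2-fold higher in pup 1, although Tdo2 was at 0.80 when scaled to spike-in totals. By counts per library total, with no correction for length, Tdo2 had 49.2 CPM in pup 1, against 42.1 CPM in pup 3, and its TPM ratio goes with a mean transcript length, weighted by isoform, of 1591 nt in pup 1, against 2574 nt in pup 3. Pcbd1 (-1.62) and Fah (-1.20) were at least 2-fold lower in pup 1 than in pup 3. With TMM and DESeq2 scaling Fah fell short of that limit (-0.93 and -0.94) and Gstz1 passed it (1.08 and 1.07), which makes 3 higher and 1 lower. On the TPM scale it is 2 of 9 in each direction, where 34.5% and 33.1% of all 8120 genes with a mean of 10 or more expected counts passed the same limit, 67.6% in all. Among the 2815 of these at 30 to 1000 TPM, the shares were 21.8% higher and 27.9% lower in pup 1, 49.7% in all, so the enzymes lie near this background.

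The median absolute log2 ratio was 0.82 over the 9 genes, 2.07 over all genes with a mean of 10 or more counts and 0.99 over those at 30 to 1000 TPM. For the 19 spike-in RNAs in that range, which do not come from the animals, it was 0.66. Counting alone gives each enzyme an error of 0.501% to 2.61% of its count, while the SD between libraries was 9.44% to 90.9% of the mean. That counting error takes reads as independent, which PCR copies are not. The replicates are labelled as separate livers, yet with 2 libraries no test of a difference is possible.

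**Figure D2:**
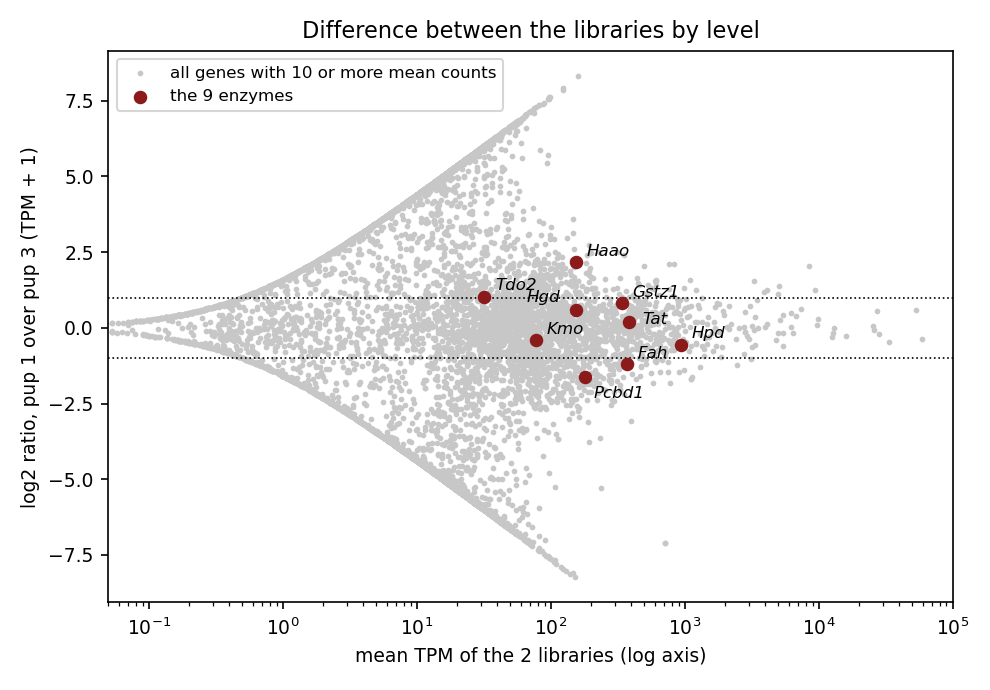
Log2 ratio of pup 1 over pup 3, on TPM + 1, against the mean TPM of both libraries on a log axis, with the 9 enzyme genes in dark red over all 8120 genes with a mean of 10 or more expected counts in grey and dotted lines at 2-fold. The enzymes lie within the cloud, with Haao (2.18) highest and Pcbd1 (-1.62) lowest among them.

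For 5 of the 9 genes (Pcbd1, Tat, Gstz1, Fah and Haao), 1 transcript held at least 99% of the gene's level in both libraries. In Hpd the 14-exon Hpd-201 was at 87.4% in pup 1 and at 91.6% in pup 3, while no other transcript reached 10%. In Hgd the 14-exon Hgd-203 held 76.3% in pup 1 and 85.6% in pup 3. The short noncoding Hgd-202 held 12.0% in pup 1 and 8.94% in pup 3, and Hgd-204, with a retained intron, 5.93% and 0.0600%. The split among isoforms is itself an estimate.

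Kmo was nearly all Kmo-201 in pup 1 (99.1%), while in pup 3 Kmo-201 held 86.5% and Kmo-202, which is also coding and has 1 exon fewer (14 against 15), held 13.5%. In Tdo2 the division differed most. The coding Tdo2-201 made up 27.9% in pup 1, against 69.6% in pup 3. The noncoding Tdo2-203 made up 52.95% and 30.4%. Tdo2-204, another coding form, held 19.2% in pup 1 and had no counts in pup 3.

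On the TPM scale, Tdo2-201 itself was at 12.1 TPM in pup 1, against 14.4 TPM in pup 3, so the higher gene level of Tdo2 in pup 1 came from the other transcripts. The coding transcripts of Tdo2 summed to 20.4 TPM in pup 1, against 14.4 TPM in pup 3, or 17.4 ± 4.26 TPM. The start site of the RefSeq promoter window of Tdo2 lies 474 nt from the nearest annotated transcript start, that of Tdo2-201, so that window is not shown.

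**Figure D3:**
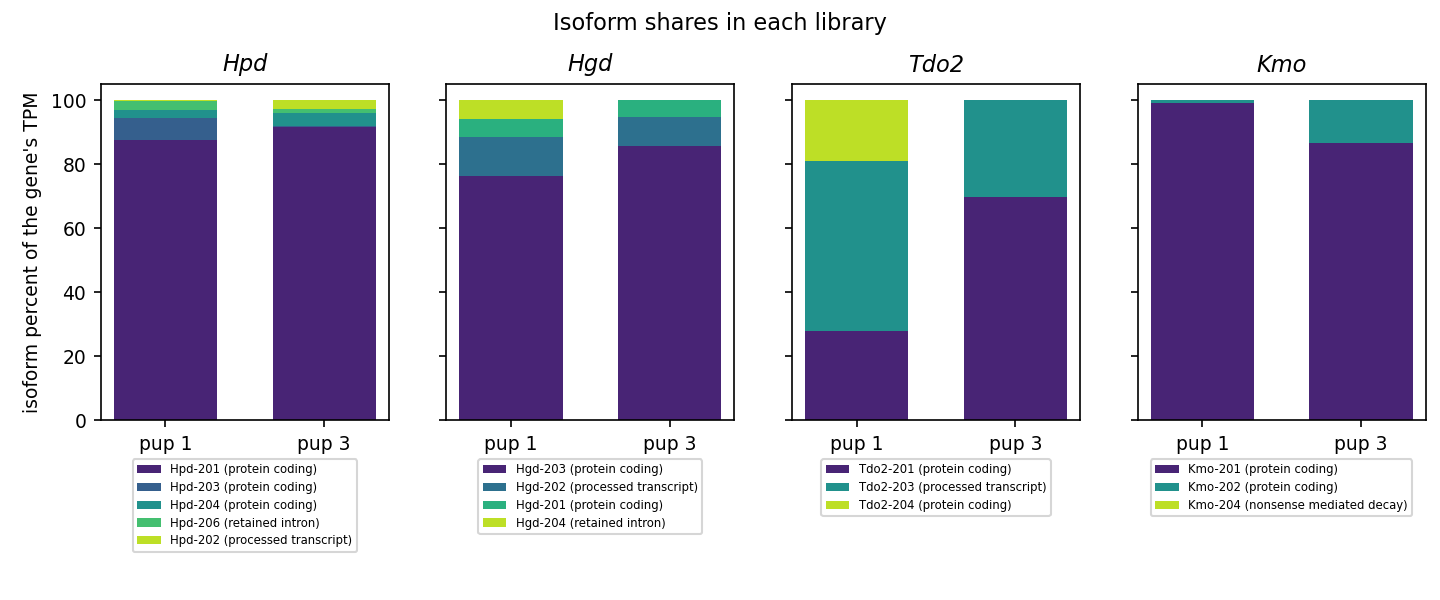
Isoform shares of Hpd, Hgd, Tdo2 and Kmo as a percent of each gene's TPM, with 1 stacked bar for the library of pup 1 and 1 for that of pup 3, and transcripts with their annotated type in the legends. Hpd and Hgd keep 1 main transcript in both libraries, whereas Tdo2-201 holds 27.9% in pup 1 and 69.6% in pup 3.

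Detection was less even over the rest of the pathway, which lies lower. Its median level was 18.8 TPM, against 181 TPM over the 9 enzymes. These levels are means of both libraries, which fall when a gene has no counts in 1 of them, so level and detection are not separate here. The 9 enzymes were also chosen with earlier results of these data known. Of 36 other genes around these enzymes, 12 reached 1 TPM in both libraries, 3 in pup 1 only, 9 in pup 3 only and 12 in neither. Over all 21474 protein-coding genes, 14.9% reached 1 TPM in both libraries, 17.3% in 1 of them, and 58.2% had no counts in either, as had 11 of the 36. Of all genes that reached 1 TPM in either library, 46.3% did so in both, so such gaps are not particular to this pathway.

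All 8 genes listed for phenylalanine and the pterin cofactor were found at 1 TPM in at least 1 library, and 4 of them in both. Qdpr, the dihydropteridine reductase that works beside Pcbd1, had 1 expected count in pup 1 and 7192 (193 TPM) in pup 3. By counts per effective length that is a ratio of 10496 toward pup 3, with an exact 95% counting interval of 1883 to 414606. Spr, which completes pterin synthesis, had 56.9 TPM in pup 1 but 0 counts in pup 3, at least 478-fold higher in pup 1 against a floor of 3 counts. Both the interval and the floor cover counting error only and take reads as independent, which PCR copies are not. They do not measure the spread between libraries. Gch1, which starts pterin synthesis, had 10.3 TPM in pup 1, against 16.4 TPM in pup 3. Its feedback regulator Gchfr had 76.8 and 11.1 TPM. Pcbd2, the close relative of Pcbd1, was without counts in pup 1 and had 22.7 TPM in pup 3.

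Among other tyrosine enzymes, 5 of 12 reached 1 TPM in both libraries. The aspartate aminotransferases Got1 (693 TPM in pup 1, against 398 TPM in pup 3) and Got2 (190 and 255 TPM) were in the range of Tat. Mif, listed for its tautomerase activity, had 588 and 985 TPM, and Maob, a monoamine oxidase, 95.3 and 145 TPM. Reads of Mif and Got2 were partly divided with other genes, since their expected counts were not whole. Fahd1, a relative of Fah, had 151 TPM in pup 1 but 0 counts in pup 3. The amino acid oxidase gene Il4i1, Maoa, Th and Tyr had no counts in either library. Th and Tyr belong to catecholamine and pigment synthesis.

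The kynurenine route had gaps on either side of Kmo. Afmid, the formamidase between Tdo2 and Kmo, was without counts in pup 1 and had 7626 expected counts (137 TPM) in pup 3, at least 2058-fold higher in pup 3. Kynu, the kynureninase between Kmo and Haao, had no counts in either library, which allows up to 0.0488 TPM in pup 1 and as much as 0.0711 TPM in pup 3. Such limits take 3 counts per library and cover counting error only, since PCR reads without molecular identifiers are not independent molecules. Ido1 and Ido2, which catalyse the same step as Tdo2, and the aminotransferase gene Aadat had none either. Tph1 and Tph2, which lead tryptophan to serotonin instead, were also without counts.

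Of the 16 other genes on the kynurenine list, Qprt, Aldh8a1 and Kyat3 reached 1 TPM in both libraries. Qprt, which takes quinolinate toward NAD, had 66.1 TPM in pup 1, against 257 TPM in pup 3, the opposite tilt to Haao. Acmsd, which diverts the product of Haao away from quinolinate, had 2.13 TPM in pup 1 but 0 counts in pup 3. Aldh8a1, the next enzyme on that diverted branch, had 120 and 135 TPM, a mean of 127 ± 10.7 TPM. Kyat3, a kynurenine aminotransferase, had 140 and 269 TPM. Kyat1, another kynurenine aminotransferase, was without counts in pup 1 and at 49.9 TPM in pup 3. Nmnat3 and Nadsyn1, which act in NAD synthesis, showed 0 and 0.953 TPM in pup 1, against 43.6 and 87.4 TPM in pup 3.

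**Figure D4:**
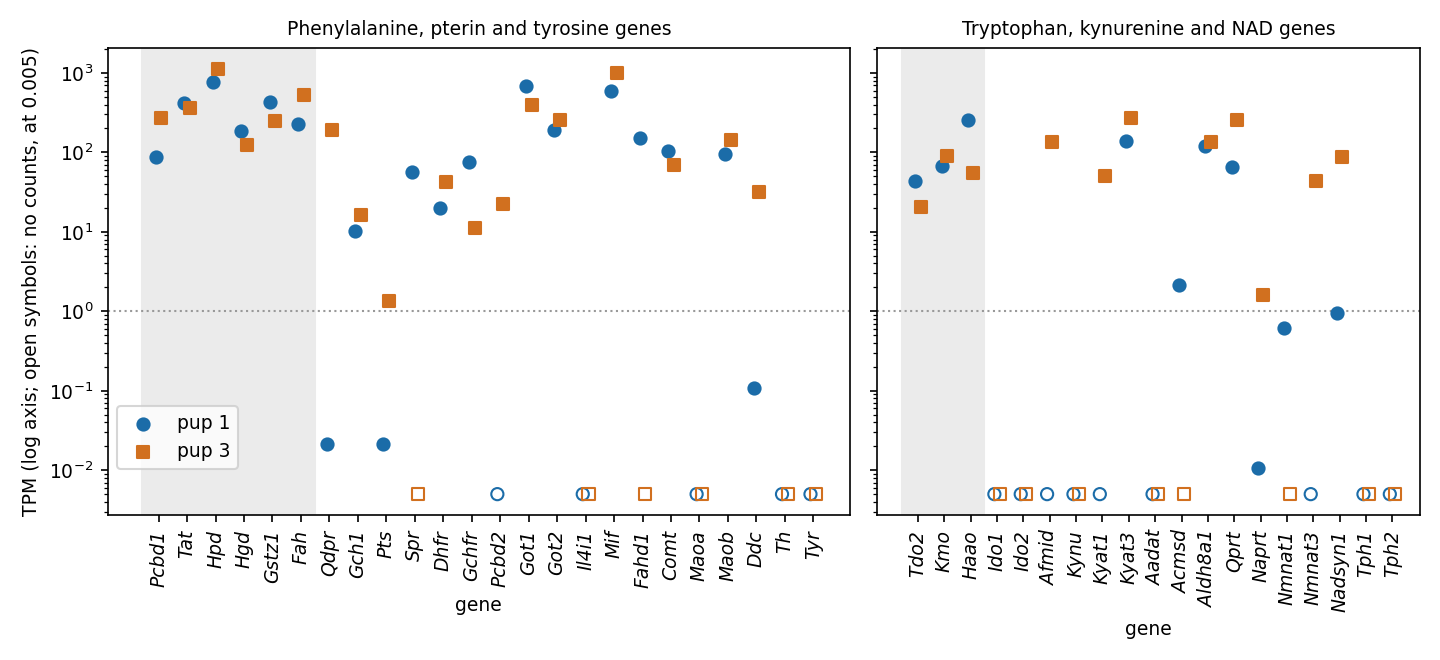
Level in TPM on a log axis of the 9 enzymes (shaded) and of other genes of the phenylalanine, tyrosine and tryptophan pathways, with circles for pup 1, squares for pup 3, open symbols at the bottom for genes without counts and a dotted line at 1 TPM. The 9 enzymes lie above 10 TPM in both libraries, while Kynu, Ido1 and Ido2 have no counts in either.

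Of 8 carriers listed for aromatic and neutral amino acids, 1 reached 1 TPM in both libraries, 2 in pup 1 only, 2 in pup 3 only and 3 in neither. Over all 21474 protein-coding genes, 14.9% reached 1 TPM in both libraries and 17.3% in 1 of them. The carrier found in both was Slc38a4, for neutral and cationic amino acids, at 329 TPM in pup 1, against 321 TPM in pup 3 (325 ± 5.31 TPM), a level like that of Gstz1. Slc43a1, which carries large neutral amino acids, had 143 TPM in pup 1 and 2 expected counts in pup 3. Slc16a10, the aromatic amino acid carrier, had 13.7 TPM in pup 1 but 0 counts in pup 3. The other 2 went the opposite way. Slc7a5 was without counts in pup 1 and had 9.08 TPM in pup 3, and Slc3a2 had 0.889 and 12.2 TPM.

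Of 14 genes of regulators linked to liver amino acid breakdown, 3 reached 1 TPM in both libraries, 6 in pup 1 only and 5 in neither. Over all 21474 protein-coding genes, 14.9% reached 1 TPM in both libraries and 17.3% in 1 of them, a share not split by library. The median level of the 14 was low, at 4.28 TPM, and a difference between the pups was not tested. Ppargc1a, a coactivator of the fasting response, had 18.3 TPM in pup 1, against 42.6 TPM in pup 3. Hnf4a had 3.45 and 4.56 TPM. Cebpa had 32.5 TPM in pup 1 but 0 counts in pup 3, and so had the glucagon receptor gene Gcgr (42.2 TPM in pup 1) and the glucocorticoid receptor gene Nr3c1 (61.5 TPM in pup 1). Tat was at 413 TPM in pup 1, against 361 TPM in pup 3, and any link between its level and these regulators was not tested.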

How the data were processed

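RNA-seq was analysed from 2 libraries of newborn liver. Per the labels' protocols, RNA came from a mirVana kit and libraries from a SmartSeq protocol, which amplifies cDNA by PCR. Per the deposited notes, values refer to mm10 with GENCODE M4. For the aligner and the quantification program, names were not given in the sources used here. The authors deposited expected counts (estimated reads per feature), TPM and FPKM over all features with spike-ins, an isoform percent per transcript, and posterior mean TPM, a score used here only as an alternative.

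Spike-ins (97 sequences) were removed and TPM was rescaled to 1000000. Names and coordinates came from GENCODE M21 (GRCm38, the assembly of mm10), where 98.0% of gene identifiers matched, and all 126 list symbols were found. Promoter windows came from RefSeq (GRCm38.p6). Totals were 56959836 (pup 1) and 35973980 (pup 3) expected counts, spike-ins included. Detection meant 1 TPM, ratios used log2(TPM + 1) and a mean of 10 expected counts, and a floor was 3 counts.

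Named were the 9 genes, up to 4 leading genes per list, genes at 1 TPM or more in 1 library with no counts in the other, and transcripts at 10% or more. Of those the rule took, many are given only in sums or counts, and some genes of the lists are counted but not reported here. Il4i1, Maoa, Th, Tyr, Kynu, Ido1, Ido2, Aadat, Tph1, Tph2, Nadsyn1, Gch1, Hnf4a and Hgd-204 lie outside that rule and were picked once their values were known. The enzymes and lists were chosen with earlier results of these data known. No count model was used for testing. The ratio procedure was tried on simulated independent counts without PCR copies, which checks its arithmetic only. Library factors came from edgeR 4.0.16 and DESeq2 1.42.0 on rounded expected counts. Other tools were Python 3.11.15, pandas 2.3.3, scipy 1.17.1, matplotlib 3.10.9 and R 4.3.3.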

Additional observations from a re-analysis of the deposited data

How the results depend on the processing

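Of 43 alternative values computed for 7 results, 39 stayed within the spread between libraries or within 1.5 times the count, and 4 did not. Some of the 39 could not have moved. Leaving out 1 of 2 libraries always keeps the summed share and the tyrosine to tryptophan ratio within the SD. Both changes of the count filter kept all 9 genes and so gave the same values. For the median absolute log2 ratio, the limit was set from that median itself. The 39 therefore overstate how far the results were tried. The summed share of the 9 genes was 0.308% by expected counts over the library total, without correction for length, and 0.311% with the 4 adult globin genes out of the total. The ratio of tyrosine to tryptophan genes was 21.6 without Haao, an alternative chosen after seeing the data. With 1 library left out, other pathway genes detected numbered 15 (pup 1 alone) to 21 (pup 3 alone), against 12 in both, since detection in 1 library asks less. In the same way the summed share ran from 0.248% to 0.281%, the tyrosine to tryptophan ratio from 5.78 to 15.96, and transcripts at 10% or more from 11 to 12, against 13. All 9 genes were detected under each of 6 alternatives. Genes at least 2-fold apart numbered 3 with spike-in totals, where Tdo2 (0.80) dropped out, and 4 under the 6 others, but with TMM and DESeq2 scaling Fah (-0.93 and -0.94) gave way to Gstz1 (1.08 and 1.07), so that 3 were higher and 1 lower in pup 1, against 2 and 2. TMM, DESeq2 and spike-in scaling moved the median of all genes by 0.21, 0.21 and -0.21 on the log2 scale. The log2 ratio of Tat was 0.45 with TMM and with DESeq2 scaling and -0.05 with spike-in totals, against 0.19 as reported. Kmo (-0.16) and Hpd (-0.29) differed less than Tat with both TMM and DESeq2 scaling. No paired analysis was possible because the labels give 1 group. The limits are 2 libraries of 1 cell-equivalent each and no separation of animal from technical spread.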
